A study of Mus musculus with 9 samples.

Results

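The 10 genes described here are regulators and markers of the epithelial to mesenchymal transition (EMT). They were chosen by name as the classical genes of that programme and not by their values, although earlier results of these data were known. All 10 are among the 19481 genes of the count table, and all 10 were among the 14725 genes tested. They comprise 3 epithelial genes (*Epcam*, *Cdh1* and *Esrp1*), the mesenchymal markers *Vim* and *Cdh2*, and the transcription factors *Zeb1*, *Zeb2*, *Snai1*, *Snai2* and *Twist1*. RNA was sequenced from 9 subcutaneous allografts of KLN205, a mouse line of lung squamous cell carcinoma (LUSC), grown in DBA/2 WT mice. The cells carried a SMART inducible shRNA, which was shControl in 3 tumors, sh2 Tmprss11b in 3 and sh3 Tmprss11b in 3 (control, sh2 and sh3 tumors below), and the question is whether depletion of the transmembrane serine protease gene *Tmprss11b* moved these genes. All 9 tumors, controls included, were exposed to doxycycline in the drinking water once the mean tumor volume had reached 100 mm3. All were taken on day 50 after injection. The shRNAs act in the injected tumor cells alone, whereas the RNA came from pieces of whole tumor that also hold host fibroblasts, vessels and leukocytes, and all tumors derive from 1 cell line. In such bulk RNA, fewer cells of a type and less RNA per cell cannot be told apart.

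Epithelial cells are held together by E-cadherin, the product of *Cdh1*, which binds the same molecule on the neighbouring cell and is tied to the actin cytoskeleton by catenins. In EMT, transcription factors of the ZEB, SNAI and TWIST families repress *Cdh1* and other epithelial genes by binding E-box sequences, and cells gain mesenchymal proteins such as vimentin (*Vim*) and N-cadherin (*Cdh2*). ESRP1 is an epithelial splicing factor, and *Esrp1* is itself a known target of repression by ZEB1. Several of these genes are not restricted to carcinoma cells: fibroblasts, endothelium and leukocytes express *Vim*, macrophages express *Zeb2*, and fibroblasts also express *Zeb1*, *Snai2* and *Twist1*.

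The E-box letters bound by these repressors were looked for in the promoters of the members. RefSeq promoter windows (GRCm38.p6, the C57BL/6J reference) running from 250 bases before to 50 bases after a transcription start were at hand for 5 of the 10 members: *Epcam*, *Snai1*, *Vim*, *Twist1* and *Zeb2*. The general E-box CANNTG was searched on both strands. So was CACCTG, the form preferred by ZEB and SNAI factors, which reads CAGGTG on the other strand and is itself a case of the general form. CACCTG stood in 20.2% of all 32851 promoter windows of the mouse, and CANNTG in 72.3%. Of the 5 members, *Epcam* and *Snai1* held CACCTG, and the windows of *Vim*, *Twist1* and *Zeb2* held neither form. The 250 bases before the start are shown for *Epcam*, an epithelial gene with E-boxes, for *Snai1*, a repressor gene with 1, and for *Vim*, a mesenchymal gene without any, with E-boxes in capitals. All 3 genes lie on the plus strand, and the stretches are chr17:87635729-87635978 for *Epcam*, chr2:167537945-167538194 for *Snai1* and chr2:13574061-13574310 for *Vim*.
Epcam: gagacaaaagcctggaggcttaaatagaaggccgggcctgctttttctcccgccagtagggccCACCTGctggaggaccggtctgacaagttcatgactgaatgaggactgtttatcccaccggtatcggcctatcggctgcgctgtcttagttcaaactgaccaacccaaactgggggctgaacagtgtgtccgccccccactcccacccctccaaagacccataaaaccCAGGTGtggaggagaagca
Snai1: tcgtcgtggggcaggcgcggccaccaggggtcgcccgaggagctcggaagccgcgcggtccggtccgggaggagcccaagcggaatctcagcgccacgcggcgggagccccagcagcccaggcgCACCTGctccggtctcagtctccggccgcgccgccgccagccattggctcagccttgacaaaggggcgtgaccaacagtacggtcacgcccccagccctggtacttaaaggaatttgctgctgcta
Vim: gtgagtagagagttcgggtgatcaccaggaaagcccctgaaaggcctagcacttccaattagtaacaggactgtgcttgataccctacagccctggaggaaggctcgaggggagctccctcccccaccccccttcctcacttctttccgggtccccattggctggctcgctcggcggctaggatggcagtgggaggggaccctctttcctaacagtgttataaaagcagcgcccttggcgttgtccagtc
In *Epcam* the CACCTG forms began 187 and 19 bases before the start, and another E-box, CACGTG, began at base 31 after it, beyond the stretch shown. In *Snai1* the single CACCTG began 126 bases before the start. These matches describe the reference sequence, and binding was not measured.

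Before the members, the targeted gene was checked. *Tmprss11b*, listed under the older symbol *Tmprss11bnl*, stood at 0.77, 2.11 and 1.72 CPM (counts scaled to library size by the TMM method) in the controls, 0.29, 0.10 and 0.21 CPM in the sh2 tumors and 0.46, 0.20 and 0.21 CPM in the sh3 tumors. Every shRNA tumor was below every control tumor (log2 fold change −2.63, SE 0.46, for both shRNAs against the control; exact permutation P = 0.0119, the smallest that 6 tumors against 3 allow), although the edgeR quasi-likelihood FDR over all genes was 0.982. Library totals ranged from 20653219 to 24047784 counts, at which 3 counts correspond to 0.125 to 0.145 CPM, so the lowest sh2 tumor lay below that level. The carcinoma keratins *Krt8* (697 to 1788 CPM) and *Krt18* (644 to 1599 CPM) were high in all 9 tumors, whereas the squamous regulator *Trp63* stood at 0.37 to 6.94 CPM. The keratins *Krt14* and *Krt6a* of the same marker list were uneven. *Krt14* ran from 12.3 CPM in sh3 tumor 1 to 390 CPM in control tumor 1. *Krt6a* ran from 46.4 CPM in sh3 tumor 1 to 292 CPM in control tumor 2. Host cells were present in every tumor, as the summed CPM of 6 macrophage markers (810 to 4020) and of 6 fibroblast markers (1240 to 5312) shows. Control tumor 1 was high in cornified skin markers (summed 92.9 CPM against 4.1 to 7.1 in the other tumors), and 4 skeletal muscle markers ranged from 1.1 CPM in sh2 tumor 3 to 2445 CPM in control tumor 3.

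The 9 tumors shared 1 order of member levels almost throughout. On the length-scaled TPM scale, which alone allows levels of different genes to be compared, the medians over the 9 tumors ran from *Epcam* (856 TPM) through *Vim* (531), *Cdh1* (169), *Esrp1* (82.7), *Twist1* (32.3), *Zeb2* (24.2), *Snai1* (24.0), *Snai2* (10.7) and *Zeb1* (6.50) to *Cdh2* (0.397 TPM). *Twist1* was above *Zeb2* in 7 of 9 tumors and *Zeb2* above *Snai1* in 5 of 9, so the order of these 3 factors was not distinct. Every other neighbouring pair kept its order in 9 of 9 tumors, and the ranges over tumors did not overlap between *Vim* and *Cdh1*, between *Snai1* and *Snai2*, and between *Zeb1* and *Cdh2*. Thus each tumor carried abundant epithelial transcripts together with abundant *Vim*. The TPM of *Epcam* exceeded that of *Vim* in each tumor, by a ratio of 1.05 in sh3 tumor 2 up to 3.12 in sh2 tumor 2. E-cadherin mRNA exceeded N-cadherin mRNA everywhere, with a *Cdh1* to *Cdh2* ratio of TPM between 278 in sh2 tumor 3 and 1238 in sh2 tumor 2.

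Among the epithelial genes, *Cdh1* (chr8:106603350-106670247) stood at 263, 301 and 302 CPM in the controls, 301, 682 and 364 CPM in the sh2 tumors and 375, 235 and 369 CPM in the sh3 tumors. The sh2 mean rested largely on sh2 tumor 2, which had the highest value of all, whereas sh3 tumor 2 had the lowest, and both groups overlapped the controls. The log2 fold change of *Cdh1* against the control was 0.64 with sh2 (95% confidence interval −0.05 to 1.32; edgeR quasi-likelihood FDR = 0.999) and 0.18 with sh3 (−0.51 to 0.86; FDR = 0.928). Without sh2 tumor 2 the sh2 value was 0.21.

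*Epcam* (chr17:87635979-87651127), which encodes an adhesion molecule of epithelial cells, stood at 757, 796 and 646 CPM in the controls, 690, 1028 and 1151 CPM in the sh2 tumors and 973, 691 and 779 CPM in the sh3 tumors. The 3 highest tumors all carried a *Tmprss11b* shRNA, but each shRNA group also held a tumor within the control range. Its log2 fold change was 0.38 with sh2 (−0.11 to 0.88; edgeR FDR = 0.999) and 0.15 with sh3 (−0.34 to 0.64; FDR = 0.910).

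*Esrp1* (chr4:11331933-11386783) had 120, 131 and 120 CPM in the controls and 137, 180 and 148 CPM in the sh2 tumors, so that all sh2 tumors were above all control tumors. In the sh3 tumors it had 260, 88.3 and 159 CPM, the first of these being the highest and the second the lowest value of the 9. The sh2 mean of 155 ± 22.6 CPM (SD, n = 3) and the control mean of 124 ± 6.54 CPM (SD, n = 3) differed by a log2 fold change of 0.32 (−0.40 to 1.05; edgeR FDR = 0.999), with an exact permutation P = 0.1, the smallest that 3 tumors against 3 can give. With sh3 the log2 fold change was 0.45 (−0.28 to 1.17; edgeR FDR = 0.826), and it was −0.00131 without sh3 tumor 1.

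**Figure D1:**
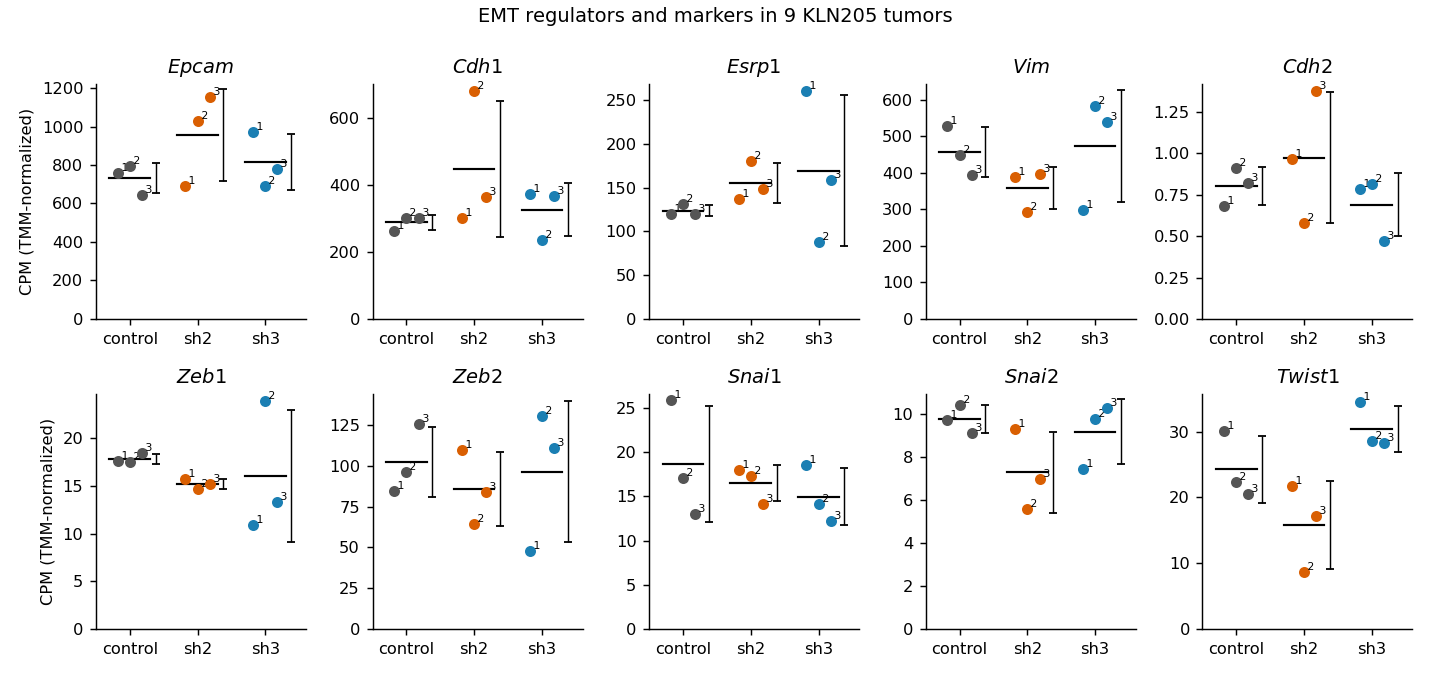
CPM of the 10 members in each of the 9 tumors, with the group on the horizontal axis, replicate numbers beside the points, the group mean as a line and its SD as a bar. Control points of *Esrp1* and *Zeb1* lie close together (SD 6.54 and 0.511 CPM) while their sh3 points spread widely (SD 86.3 and 6.94 CPM).

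Of the mesenchymal markers, *Vim* (chr2:13574311-13582826), the intermediate filament of mesenchymal cells, stood at 529, 449 and 394 CPM in the controls, 387, 293 and 397 CPM in the sh2 tumors and 298, 584 and 540 CPM in the sh3 tumors. The sh2 tumors lay at or below the lower end of the controls with a small overlap, and the sh3 tumors fell on both sides of them. The log2 fold change was −0.35 with sh2 (−0.93 to 0.23; edgeR FDR = 0.999) and 0.05 with sh3 (−0.52 to 0.63; FDR = 0.978).

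*Cdh2* was at the edge of detection, with 16, 22 and 20 reads counted in the control tumors, 23, 12 and 33 in the sh2 tumors and 17, 16 and 11 in the sh3 tumors. All 9 libraries were above the 3 counts set as the floor, but its confidence intervals were the widest among the members (log2 fold change 0.28 with sh2, −0.68 to 1.24; −0.22 with sh3, −1.20 to 0.76; edgeR FDR = 0.999 and 0.940).

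Of the ZEB factors, which repress *Cdh1* and *Esrp1*, *Zeb1* stood at 17.6, 17.5 and 18.4 CPM in the controls, 15.7, 14.7 and 15.2 CPM in the sh2 tumors and 10.9, 23.9 and 13.3 CPM in the sh3 tumors. All sh2 tumors were below all control tumors, with group means of 15.2 ± 0.513 and 17.8 ± 0.511 CPM (SD, n = 3 each; exact permutation P = 0.1, the smallest possible), whereas the sh3 tumors held both the lowest and the highest value of the 9. The log2 fold change was −0.23 with sh2 (−0.83 to 0.37; edgeR FDR = 0.999) and −0.15 with sh3 (−0.76 to 0.45; FDR = 0.927). Of the 6 shRNA tumors, sh3 tumor 2 alone stood above the controls in CPM and the other 5 below them. In TPM sh3 tumor 2 lay within the control range (7.63 against 7.07 to 7.84 TPM).

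*Zeb2* (chr2:44983512-45117442), the paralog of *Zeb1*, stood at 84.5, 96.2 and 126 CPM in the controls, 110, 64.3 and 83.8 CPM in the sh2 tumors and 47.6, 130 and 111 CPM in the sh3 tumors. The groups overlapped throughout, with sh3 tumor 1 the lowest and sh3 tumor 2 the highest of the 9, as for *Zeb1*. Its log2 fold change was −0.25 with sh2 (−1.04 to 0.54) and −0.08 with sh3 (−0.88 to 0.71), with edgeR FDR = 0.999 and 0.974.

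The SNAI factors are zinc finger repressors of *Cdh1*. *Snai1* (chr2:167538195-167542814) stood at 25.9, 17.1 and 13.0 CPM in the controls, 18.03, 17.3 and 14.1 CPM in the sh2 tumors and 18.5, 14.1 and 12.2 CPM in the sh3 tumors. Control tumor 1, the one with skin markers, was alone at the top, and without it the log2 fold change of *Snai1* for both shRNAs turned from −0.25 (−0.77 to 0.28; edgeR FDR = 0.982) to 0.06. The part of skin in that value was not tested. *Snai2* (chr16:14705852-14709395) stood at 9.71, 10.4 and 9.09 CPM in the controls, 9.27, 5.56 and 6.97 CPM in the sh2 tumors and 7.44, 9.76 and 10.3 CPM in the sh3 tumors. Here sh2 tumors 2 and 3 and sh3 tumor 1 were below the control range and the other 3 shRNA tumors within it, and the log2 fold change was −0.42 with sh2 (−0.97 to 0.12; edgeR FDR = 0.999) and −0.09 with sh3 (−0.63 to 0.46; FDR = 0.961).

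*Twist1* (chr12:33957671-33959831), a basic helix-loop-helix factor of mesoderm and EMT, had the largest difference between the constructs of the 10 members. It stood at 30.1, 22.4 and 20.5 CPM in the controls, 21.8, 8.60 and 17.2 CPM in the sh2 tumors and 34.5, 28.7 and 28.3 CPM in the sh3 tumors. All sh3 tumors were above all sh2 tumors, and the controls lay between and overlapped both. Against the control the log2 fold change was −0.61 with sh2 (−1.31 to 0.08; edgeR FDR = 0.999) and 0.33 with sh3 (−0.37 to 1.02; FDR = 0.856). Between the constructs it was 0.94 in favour of sh3 (0.24 to 1.64; edgeR unadjusted P = 0.0139, FDR = 0.673; exact permutation P = 0.1, the smallest possible), so this difference did not pass over all genes tested. It was 0.63 to 1.23 with each tumor left out in turn.

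Counted over the members, none passed an FDR of 0.05 in edgeR's quasi-likelihood test with sh2, with sh3, with both shRNAs against the control or between the constructs, where 0% of the 14725 genes tested passed in each. At an unadjusted P under 0.05 the count of members was 0, 0, 0 and 1 (*Twist1*), against 3.52%, 6.63%, 4.09% and 7.18% of all genes, and DESeq2 and the edgeR likelihood ratio test also gave 0 members past the FDR in each comparison. With sh2, 2 of the 10 members had no overlap with the control tumors (*Esrp1* higher, *Zeb1* lower), where 11.4% of all genes had none (5.56% higher and 5.83% lower). With sh3 the count was 0, where it was 12.2% of all genes (6.78% higher and 5.44% lower). For both shRNAs against the control it was 0, beside 2.17% of all genes (1.21% higher and 0.958% lower). Between the constructs it was 1 (*Twist1*, higher with sh3), beside 10.1% of all genes (5.51% higher and 4.62% lower). In direction, all 3 epithelial genes had positive log2 fold changes with each shRNA. Of the 7 mesenchymal genes, 6 were below 0 with sh2, *Cdh2* being the exception, and 5 with sh3, *Vim* and *Twist1* being the exceptions. These are signs of values that did not pass, and both comparisons use the same 3 control tumors. Over all genes 51.8% were above 0 with sh2 and 54.9% with sh3, with medians of 0.01 and 0.03. For both shRNAs together 4 of the 10 members were above 0, beside 55% of all genes.

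**Figure D2:**
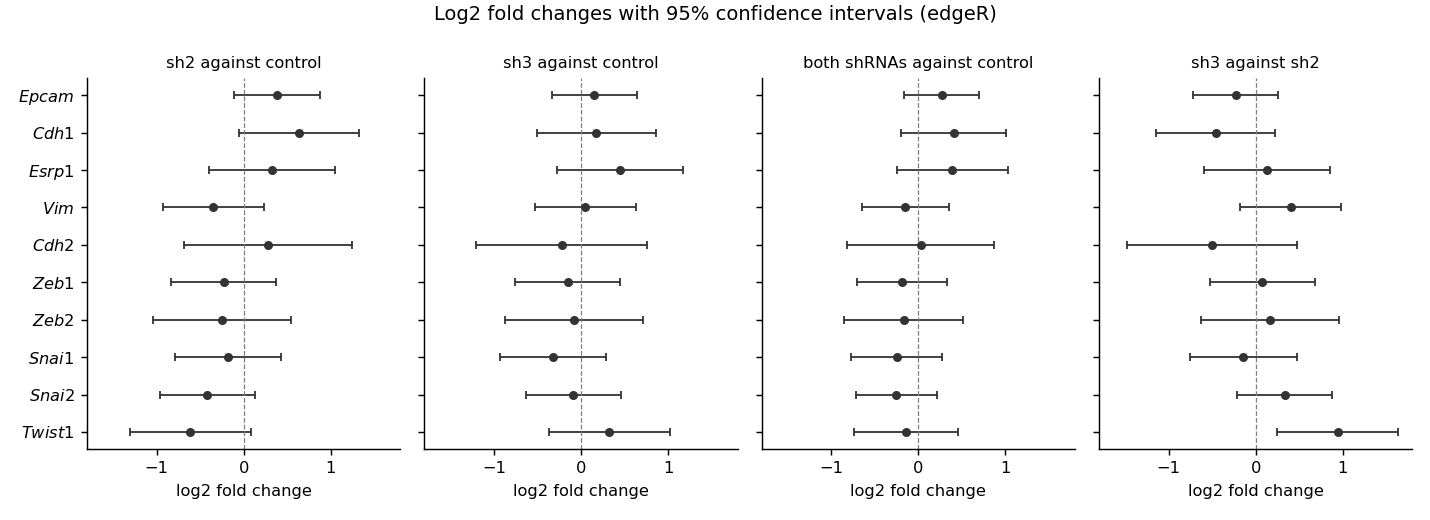
Log2 fold change (horizontal axis) of each member (rows) in the 4 comparisons, with 95% confidence intervals from edgeR. The interval crosses 0 in every case except *Twist1* between the constructs (0.24 to 1.64).

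Single tumors held the extremes of several members at once. In sh2 tumor 2, *Cdh1* was the highest of the 9 and *Vim*, *Snai2* and *Twist1* were the lowest, with all 3 epithelial genes among the top 2 ranks and 5 of the 7 mesenchymal genes among the bottom 2. In sh3 tumor 2 the reverse held in CPM, since *Vim*, *Zeb1* and *Zeb2* were highest and *Cdh1* and *Esrp1* lowest. In TPM *Cdh1* and *Esrp1* were still lowest there. *Vim*, however, was highest in control tumor 1 (673 TPM, against 589 in sh3 tumor 2). *Zeb1* (7.84 against 7.63 TPM) and *Zeb2* (33.3 against 25.8 TPM) were highest in control tumor 3. In sh3 tumor 1, *Esrp1* was highest and *Zeb1* and *Zeb2* lowest, but *Twist1* was highest as well. As a single description, the mean log2 CPM of the 3 epithelial genes minus that of the 7 mesenchymal genes was 3.58, 3.80 and 3.74 in the control tumors, 3.78, 5.08 and 4.31 in the sh2 tumors and 4.65, 3.26 and 4.11 in the sh3 tumors. The controls stood close together (3.71 ± 0.115, SD, n = 3), and the shRNA tumors lay around and above them (4.39 ± 0.652 with sh2 and 4.01 ± 0.697 with sh3, SD, n = 3 each). The mean difference of 0.49 between the shRNA and control tumors was 0.31 without sh2 tumor 2 and 0.68 without sh3 tumor 2.

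The spread itself was larger in the shRNA groups. The SD of log2 CPM within a group exceeded that of the controls for 9 of the 10 members with sh2, *Snai1* being the exception, and for 8 of 10 with sh3, *Snai1* and *Twist1* being the exceptions. Over all 14725 genes the same was true of 59.0% with sh2 and of 75.2% with sh3. For *Zeb1* the SD was 0.04 in the control, 0.05 in the sh2 and 0.59 in the sh3 tumors, and for *Esrp1* it was 0.08, 0.21 and 0.78, beside a median of all genes of 0.18, 0.22 and 0.35. The SD of *Zeb1* was thus close in control and sh2 tumors and large with sh3, where tumors 1 and 2 stood at its lower and upper end. With 3 tumors in a group these SDs are themselves imprecise, and their difference was not tested.

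**Figure D3:**
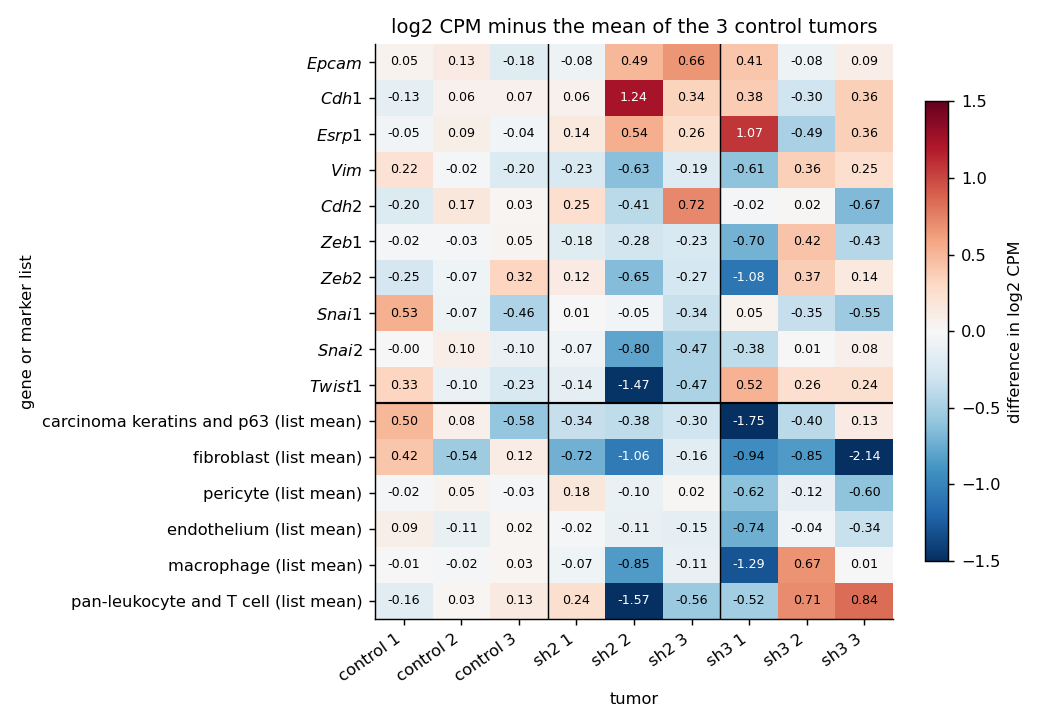
Log2 CPM of each member (upper rows) and mean log2 CPM of 6 cell type marker lists (lower rows) in each tumor (columns), minus the mean of the 3 control tumors, with colour running from blue (lower) to red (higher). In sh3 tumor 1 the macrophage list was 1.29 lower than in the controls on this scale and *Zeb2* 1.08 lower, and in sh3 tumor 2 they were 0.67 and 0.37 higher.

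Whether the members varied together was asked over the 9 tumors, with Pearson's r and Spearman's rho of log2 CPM, exact permutation P over all pairings and Benjamini-Hochberg adjustment over the 45 pairs. *Esrp1* and *Zeb1* varied inversely (r = −0.96, exact P = 0.000278, adjusted P = 0.0125; rho = −0.97, exact P = 0.000165, adjusted P = 0.0074). This r was −0.85 without sh3 tumors 1 and 2, the 2 farthest from the median of *Esrp1*, −0.98 to −0.94 with each tumor left out, and −0.96 after the group means had been removed. The adjusted exact P of r rose to 0.0536 without control tumor 3, to 0.0569 without sh3 tumor 2 and to 0.0558 with group means removed. That of rho rose to 0.0513 without sh2 tumor 3, to 0.0502 without sh3 tumor 1 and to 0.0513 without sh3 tumor 2. *Cdh1* and *Esrp1* passed by rank (rho = 0.93, adjusted exact P = 0.0169) but not by r (0.66, adjusted exact P = 0.187; 0.76 without sh2 tumor 2 and sh3 tumor 2). The rank relation no longer passed without control tumor 1, sh2 tumor 2, sh2 tumor 3, sh3 tumor 1 or sh3 tumor 2 (adjusted exact P from 0.0502 to 0.103, rho 0.90 to 0.93). No other pair passed by either measure.

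In sign, all 3 pairs of epithelial genes correlated positively, 18 of the 21 pairs of an epithelial with a mesenchymal gene correlated negatively (median r −0.57), and 13 of the 21 pairs of mesenchymal genes correlated positively (median r 0.11). Thus the mesenchymal genes did not vary as 1 block. *Vim* and *Snai2* varied together most among them (r = 0.80, exact P = 0.00938, adjusted P = 0.105; rho = 0.77, adjusted P = 0.192; r = 0.78 without the 2 tumors farthest from the median). *Zeb1* and *Zeb2* gave r = 0.74 (exact P = 0.0247, adjusted P = 0.117; rho = 0.68), but r was 0.23 without sh3 tumors 1 and 2, so that this relation rested on those tumors. *Epcam* and *Zeb2* gave r = −0.75 (exact P = 0.0202, adjusted P = 0.114; rho = −0.78), and −0.92 without sh2 tumors 2 and 3.

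Markers of host cells moved with several members. Each member was set against the mean log2 CPM of 11 marker lists (carcinoma, fibroblast, pericyte, endothelium, macrophage, pan-leukocyte and T cell, neutrophil, cornified skin, skeletal muscle, adipocyte and Schwann cell), 110 relations in all, of which 4 passed by r and none by rho. *Zeb2* rose with the 6 macrophage markers (r = 0.92, exact P = 0.000243, adjusted P = 0.0239; rho = 0.93, adjusted P = 0.0825; r = 0.62 without sh2 tumor 2 and sh3 tumor 1). *Vim* did so too (r = 0.87, adjusted exact P = 0.0307; rho = 0.78; r = 0.84 without the 2 farthest tumors), whereas *Esrp1* fell with them (r = −0.95, adjusted exact P = 0.0239; rho = −0.80; r = −0.76 without sh3 tumors 1 and 2). *Snai2* rose with the 4 pan-leukocyte and T cell markers (r = 0.90, adjusted exact P = 0.0307; rho = 0.75; r = 0.67 without sh2 tumors 2 and 3). None of the 4 passed the adjustment any longer without sh2 tumor 2, sh2 tumor 3, sh3 tumor 1 or sh3 tumor 2 (adjusted P from 0.0573 upwards), although each r kept its sign. *Vim* and *Snai2* also did not pass without control tumor 1, sh2 tumor 1 or sh3 tumor 3 (0.055 to 0.0832), nor *Snai2* without control tumor 3 (0.0559).

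The macrophage sum itself was 2260, 2051 and 2192 CPM in the controls, 2011, 1176 and 1922 CPM in the sh2 tumors and 810, 4020 and 2625 CPM in the sh3 tumors, with all 6 markers detected in each library. Its low tumors, sh2 tumor 2 and sh3 tumor 1, are also the 2 lowest of the 9 for *Vim* and for *Zeb2*. Its high tumor, sh3 tumor 2, is the highest for both genes in CPM, but not in TPM. *Zeb1* gave r = 0.84 with the same list (exact P = 0.00751, adjusted P = 0.133; 0.35 without sh3 tumors 1 and 2). The endothelium list gave r = 0.79 with *Zeb1* (adjusted exact P = 0.162) and −0.83 with *Esrp1* (adjusted exact P = 0.133). Without sh3 tumors 1 and 2 these were 0.84 and −0.69. With the pericyte list r was 0.61 for *Zeb1* and −0.59 for *Esrp1*, or 0.89 and −0.86 with group means removed. Without sh3 tumors 1 and 2 the pericyte values were 0.65 and −0.44. Over the 9 tumors *Esrp1* thus passed the adjustment with the macrophage list alone, and *Zeb1* with no list. The part of the host cell lists in the inverse relation of *Esrp1* and *Zeb1* was not tested. The fibroblast sum, 5312, 2992 and 3742 CPM in the control, 2924, 2335 and 3915 CPM in the sh2 and 1697, 2200 and 1240 CPM in the sh3 tumors, was lower in every sh3 tumor than in every control, and no member passed the adjustment with that list.

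**Figure D4:**
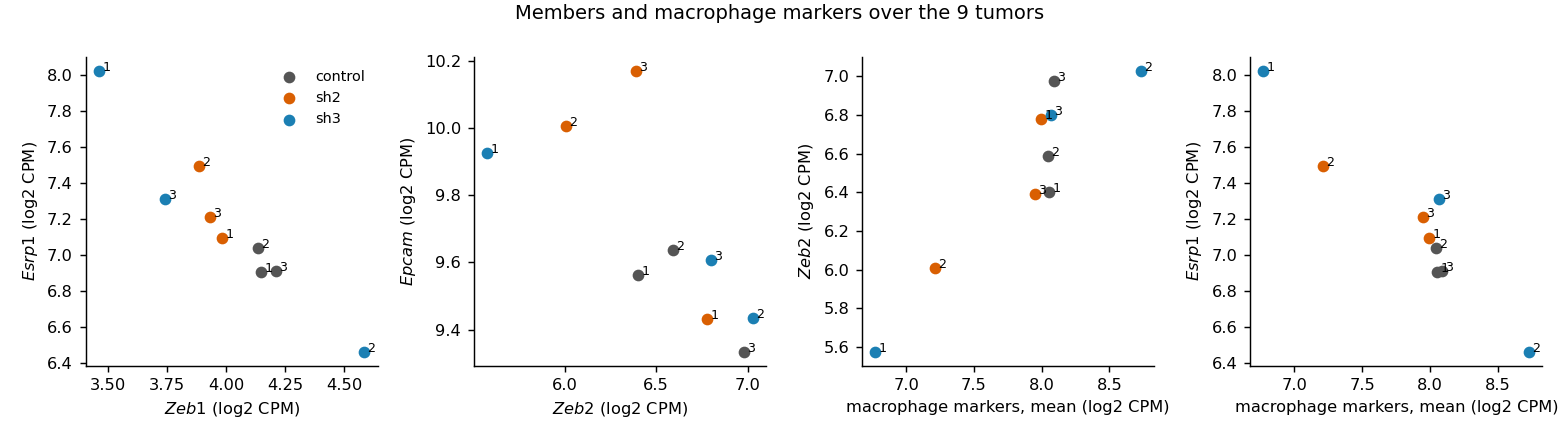
Each point is 1 of the 9 tumors, coloured by group and numbered by replicate, with log2 CPM on both axes: *Esrp1* against *Zeb1* (r = −0.96), *Epcam* against *Zeb2* (r = −0.75), and *Zeb2* (r = 0.92) and *Esrp1* (r = −0.95) against the mean of the macrophage markers. Sh3 tumors 1 and 2 lie at opposite ends in the panels with *Esrp1*.

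The genes closest to each member over the 9 tumors were sought among the 13596 non-member genes averaging 1 CPM or more, as a description. *Cdh1* was followed most closely by *Ctnna1* (r = 0.99), which encodes alpha-catenin, then by *Ezr* (0.97), which encodes the membrane-cytoskeleton linker ezrin, and *Hmgcll1* (0.96). *Epcam* had *Traf3ip1* (0.96), *Sart1* (0.95) and *Ap1m2* (0.95), the last an epithelial adaptor subunit of protein sorting, and *Esrp1* had *Prpf4* (0.97), *Ankib1* (0.97) and *Klhl20* (0.96). For *Vim* they were *Keap1* (0.97), *Rhog* (0.97) and the macrophage marker *Cd68* (0.96). *Zeb2* had the endosomal RNA sensor gene *Tlr8* (0.99), *Adap2* (0.99) and *Arhgef6* (0.98), while its paralog *Zeb1* had *Myo7a* (0.96), *Xlr* (0.96) and *Meis3* (0.96). *Snai2* had *Ptpn22* (0.96), a phosphatase gene of lymphocytes, *Gnb4* (0.96) and *Lincrna-cox2* (0.96), and *Twist1* had *Fam216a* (0.96), *Raver2* (0.96) and *Procr* (0.95). The likeness was lower for *Snai1* (*Rmnd5b* 0.90, *Cxcl2* 0.90 and *Klhl17* 0.88) and for the sparse *Cdh2* (*Csn3* 0.92, *Rasl12* 0.90 and *Gch1* 0.88).

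The wider programme was described with 7 gene lists, with 61 genes tested, of which none passed an FDR of 0.05 in any comparison by edgeR's quasi-likelihood test, the edgeR likelihood ratio test or DESeq2. At an unadjusted P under 0.05 by the quasi-likelihood test they numbered 5 with sh2, 8 with sh3, 3 for both shRNAs and 11 between the constructs, that is 8.2%, 13.1%, 4.92% and 18% of the 61, beside 3.52%, 6.63%, 4.09% and 7.18% of all genes. Of the other EMT transcription factors, 8 of 9 were tested (*Foxc2* was not), and their median log2 fold change was −0.39 with sh2 and −0.04 with sh3. Among them the homeobox gene *Prrx1* had 66.2, 60.2 and 59.7 CPM in the controls, 49.4, 36.5 and 53.0 CPM in the sh2 tumors and 30.7, 49.8 and 34.1 CPM in the sh3 tumors. All 6 shRNA tumors were thus below all 3 controls, as for 0.958% of all genes (log2 fold change −0.56, SE 0.18, edgeR unadjusted P = 0.0106, FDR = 0.982). *Snai3* and *Twist2*, relatives of the members, were near or below a few CPM (0.4 to 1.0 and 0.2 to 4.1 CPM). The 6 corepressors recruited by ZEB and SNAI factors were above 0 in 6 of 6 cases with each shRNA (median 0.18 with each). Over all genes 51.8% were above 0 with sh2 and 54.9% with sh3. The corepressors include *Hdac2* (0.16 for both shRNAs, SE 0.12), *Hdac1* (0.16) and *Ctbp2* (0.19). *Ctbp1* stood at 316, 263 and 270 CPM in the controls and 610, 225 and 274 CPM in the sh2 tumors. In the sh3 tumors it had 291, 506 and 261 CPM, so sh2 tumor 1 and sh3 tumor 2 alone were above all controls.

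On the epithelial side, the 4 catenin partners of E-cadherin were all above 0 with sh2 (median 0.37) and split 2 and 2 with sh3 (median 0.02). *Ctnna1* stood at 569, 660 and 642 CPM in the controls, 692, 1268.5 and 761 CPM in the sh2 tumors and 822, 561 and 724 CPM in the sh3 tumors, with sh2 tumor 2 the highest and sh3 tumor 2 the lowest, as for *Cdh1*. *Ctnnb1*, the gene of beta-catenin, had a log2 fold change of 0.46 with sh2 (edgeR unadjusted P = 0.0307, FDR = 0.999) and −0.01 with sh3. Of the 19 junction and polarity genes, 17 were above 0 with sh2 (median 0.31) and 13 with sh3 (median 0.16), among them the junctional adhesion molecule gene *F11r* (0.55 and 0.27). The 8 epithelial transcription factors had medians of 0.25 with sh2 and −0.25 with sh3, and none passed the FDR between the constructs. *Grhl2* had a log2 fold change of 0.45 with sh2 (edgeR unadjusted P = 0.0434, FDR = 0.999) and 0.06 with sh3. *Grhl1* had 0.18 with sh2 and −1.20 with sh3 (edgeR unadjusted P = 0.0375, FDR = 0.753 with sh3). *Elf3*, an epithelial ETS factor, stood at 107, 112 and 98.7 CPM in the controls, 98.3, 407 and 304 CPM in the sh2 tumors and 50.1, 117 and 99.3 CPM in the sh3 tumors, so that its sh2 value (log2 fold change 1.35, edgeR FDR = 0.999) came from sh2 tumors 2 and 3. Of the 5 splicing factors related in role to *Esrp1*, 3 were above 0 with each shRNA, between −0.28 and 0.26, and *Rbm47* had the smallest unadjusted P for both shRNAs (0.255; log2 fold change 0.16).

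On the mesenchymal side, 11 effector genes had a median log2 fold change of −0.04 with sh2 and −0.44 with sh3, where 10 of the 11 were below 0. With sh3, 4 of the 11 lay below all controls without overlap, where 5.44% of all genes did. *Itga5*, an integrin subunit that binds fibronectin, had 72.2, 73.5 and 61.6 CPM in the controls and 52.9, 50.7 and 48.8 CPM in the sh3 tumors (log2 fold change −0.44, edgeR unadjusted P = 0.00426, FDR = 0.753). *Cdh11*, a cadherin of fibroblasts, had a log2 fold change of −0.67 and the collagen cross-linking enzyme gene *Loxl2* one of −0.66 (edgeR FDR = 0.753 for both). Of the 6 fibroblast markers, 6 were below 0 with sh3 as well (median −1.22, 4 without overlap with the controls) and 6 with sh2 (median −0.53). None passed the quasi-likelihood FDR, whereas with sh3 the collagen genes *Col1a1* and *Col1a2* passed by DESeq2 and *Col1a2* by the likelihood ratio test. With sh3, DESeq2 called 0.278% of all genes and the likelihood ratio test 0.0543%. Their part in the effector genes was not tested.

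**Figure D5:**
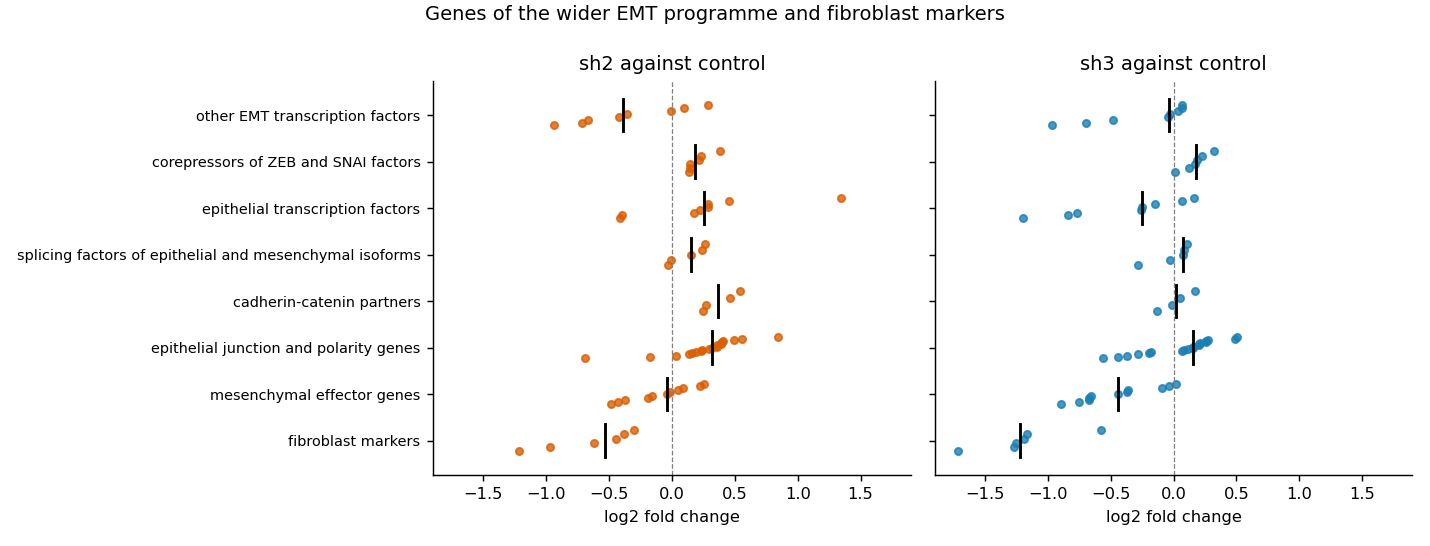
Log2 fold change against the control (horizontal axis) of each tested gene of the 7 lists and of the fibroblast markers (rows), with sh2 on the left and sh3 on the right, and the list median as a black line. The mesenchymal effector genes and fibroblast markers lie mostly below 0 with sh3 (medians −0.44 and −1.22), and no gene shown passed the FDR of the quasi-likelihood test.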

How the data were processed

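Total RNA of 9 tumors was made into libraries with the TruSeq Stranded mRNA kit. The submitters' processing notes name FastQC, STAR 2.5.3a, featureCounts, edgeR and the mm10 build. The annotation, the strand setting and the handling of multiply mapped reads, which bears on paralogs, are not given in the sources used here. The authors deposited raw read counts per gene, which were tested. The CPM deposited by the authors are a normalized signal, equal to counts divided by TMM-scaled library sizes, and served as a check. The TPM deposited by the authors, scaled by gene length, gave levels between genes. Columns of the authors' own comparisons (fold changes, P values and FDR) were not used, and 0 per-sample columns lacked a sample.

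Groups and replicate numbers follow the labels, which call the replicates biological. Counts of all 9 tumors were fitted in 1 model with edgeR 4.0.16 in R 4.3.3 (filterByExpr by group, TMM, robust quasi-likelihood tests, Benjamini-Hochberg over 14725 genes, FDR threshold 0.05). Log2 CPM used a prior count of 2. Exact permutation tests were two-sided, with a smallest P of 0.1 for 3 tumors against 3. Correlations and figures used Python 3.11.15, with scipy 1.17.1, pandas 2.3.3, numpy 2.4.6 and matplotlib 3.10.9. The floor of 3 counts covers counting error only, since reads carry no molecular identifiers. Coordinates are those of RefSeq genes on GRCm38.p6. The fits were tested on simulated data.

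The members, gene lists and tests were chosen with earlier results of these data known. Named are all members, the targeted gene and *Krt8*, the carcinoma marker with the highest mean CPM. For each member, the 3 genes with the highest r were named as well. In each list, 1 or more of the 3 genes with the smallest unadjusted P for both shRNAs against the control were named. *Trp63*, *Krt18*, *Krt14*, *Krt6a*, *Col1a1*, *Col1a2*, *Ctbp1* and *Foxc2* were named after their values were seen. Alternatives were DESeq2 1.42.0, its size factors within edgeR, the edgeR likelihood ratio test, other filters on low counts, fits of only the 2 groups at hand, the replicate number as a block, a prior count of 0.5, group means removed, CPM in place of TPM, and each tumor left out.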

Additional observations from a re-analysis of the deposited data

How the results depend on the processing

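No member passed an FDR of 0.05 under any alternative, the lowest being 0.168 for *Vim* between the constructs without sh3 tumor 1. All 270 log2 fold changes of members under settings other than leaving out a tumor kept their direction, as did 338 with a tumor left out, and 22 turned sign, all of values that had not passed. The ranges with each tumor left out of the values that turned were as follows. With sh2 they were −0.0394 to 0.55 for *Cdh2* and −0.38 to 0.14 for *Snai1*. With sh3 they were −0.00131 to 0.76 for *Esrp1*, −0.13 to 0.30 for *Vim*, −0.56 to 0.0594 for *Zeb1*, −0.36 to 0.24 for *Zeb2* and −0.20 to 0.0423 for *Snai2*. For both shRNAs they were −0.14 to 0.15 for *Cdh2*, −0.31 to 0.00395 for *Zeb2*, −0.46 to 0.0557 for *Snai1* and −0.30 to 0.0320 for *Twist1*. Between the constructs they were −0.33 to 0.43 for *Esrp1*, −0.33 to 0.29 for *Zeb1* and −0.11 to 0.49 for *Zeb2*. Of the 40 values, 24 others kept their sign but moved by over 1.5 times without some tumor, and 2 did neither. Among the 24, *Epcam* with sh3 was 0.0059 without sh3 tumor 1, *Epcam* with sh2 0.24 without sh2 tumor 3, *Twist1* with sh2 −0.31 without sh2 tumor 2, *Zeb2* with sh2 −0.0688 without control tumor 3 and *Vim* with sh2 −0.22 without sh2 tumor 2. For *Tmprss11b*, both shRNAs against the control, the FDR passed with DESeq2 (log2 fold change −2.65, FDR = 0.0486) and with the edgeR likelihood ratio test (−2.63, FDR = 0.00249). The cause was not tested. The exact test of both shRNAs against the control called 0 to 1 members with a tumor left out. The 1, *Zeb1* without sh3 tumor 2, follows from leaving out the only shRNA tumor above the controls in CPM and supports nothing. Of the 45 correlations between members 1 passed, 0 with group means removed and 0 to 7 with a tumor left out. Of the 110 with marker lists 4 passed, 9 with group means removed and 0 to 4 with a tumor left out. Values with group means removed sum to 0 within each group, so their permutation P is not exact and the 9 support nothing further. The mean epithelial minus mesenchymal difference of 0.49 ranged from 0.31 to 0.68. With the replicate number as a block, 0 members passed in each comparison (*Cdh1* with sh2 had 0.60), and the lowest member FDR was 0.887. Tumors with the same number did not deviate together (mean r −0.10 over 9 pairs, −0.24 to 0.09, against 0.05 over 18 pairs of different numbers), so the numbers do not pair the tumors and this block changed no call. CPM in place of TPM left the same tumor highest for 7 of the 10 members, but not for *Vim*, *Zeb1* and *Zeb2*. These were highest in sh3 tumor 2 in CPM and in a control tumor in TPM. *Tmprss11b* could not be tested with at least 10 counts required in every tumor. With 3 tumors a group, the SE of the members' log2 fold changes with sh2 ranged from 0.22 (*Epcam*) to 0.43 (*Cdh2*), which limits the changes that could be called.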
